A study of Homo sapiens with 6 samples.

Results

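The genes described here are named as protein subunits of the cytosolic ribosome or as paralogues of them, and not every paralogue need be part of the ribosome. They were chosen by name, as every row of the deposited count table whose symbol is RPL or RPS followed by a number, together with RPSA, RPLP0, RPLP1 and RPLP2, leaving out the RPS6K kinases and rows on chromosome Y. The rule found 86 of the 20325 protein-coding rows, which lie on 21 chromosomes. By name, 33 were counted to the small subunit, 50 to the large subunit and 3 to the P stalk. The cells were of the established line SNU-668, from a human gastric cancer, labelled as resistant to erastin, a small molecule that blocks cystine import and induces ferroptosis. The control group (genotype label WT) had received the control shRNA named shRNA-NC and the knockdown group shRNA-ALKBH3, with 3 libraries each. All were resistant cells in DMEM with 10% FBS, and no group without erastin resistance or without an shRNA entered the comparison. ALKBH3 is a demethylase that acts on alkylated adenosine and cytidine in RNA and DNA. The labels name 1 line and do not say how many hairpins or clones were used, nor that replicates were separate cultures, so p-values reflect library-to-library spread alone, and that spread could be technical.

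Ribosomal proteins assemble with ribosomal RNA in near-equal amounts, and their genes are among the most strongly transcribed of any growing cell. Their mRNAs usually open with a cytidine and a run of further pyrimidines, the terminal oligopyrimidine (TOP) motif, through which LARP1 and the kinase mTORC1 control their translation and stability. A few subunits have a paralogue that can take their place in the ribosome, and several, such as RPL5 and RPL11, also act outside it by binding MDM2, the inhibitor of p53.

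The first bases of selected members are shown because the motif is defined at the 5′ end and because paralogues, which encode closely related proteins, differ there. Sequences are RefSeq starts on GRCh38.p14, 20 bases before and 20 from the annotated start, 5′ to 3′, and capitals mark the longest run of C and T that touches the window from 5 bases before to 10 after the start.
RPS27, chr1:153990742-153990781, plus strand: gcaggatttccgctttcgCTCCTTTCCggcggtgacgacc
RPS27L, chr15:63157458-63157497, minus strand: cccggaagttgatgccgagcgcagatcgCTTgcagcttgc
RPL22, chr1:6199576-6199615, minus strand: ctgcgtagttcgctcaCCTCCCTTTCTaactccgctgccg
RPL22L1, chr3:170870176-170870215, minus strand: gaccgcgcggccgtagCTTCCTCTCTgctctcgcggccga
RPL36A, chrX:101390991-101391030, plus strand: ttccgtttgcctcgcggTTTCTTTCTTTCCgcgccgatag
RPL36AL, chr14:49620607-49620646, minus strand: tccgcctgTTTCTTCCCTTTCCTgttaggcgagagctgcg
RPL26, chr17:8383174-8383213, minus strand: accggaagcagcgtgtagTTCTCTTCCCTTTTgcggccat
RPL26L1, chr5:172958709-172958748, plus strand: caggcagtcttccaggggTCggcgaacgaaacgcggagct
RPS6, chr9:19380217-19380256, minus strand: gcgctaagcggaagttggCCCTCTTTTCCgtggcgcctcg
RPS24, chr10:78033843-78033882, plus strand: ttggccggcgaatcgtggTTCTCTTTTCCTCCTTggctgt
RPL29, chr3:51995876-51995915, minus strand: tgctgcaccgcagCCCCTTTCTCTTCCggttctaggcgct
RPL39, chrX:119791611-119791650, minus strand: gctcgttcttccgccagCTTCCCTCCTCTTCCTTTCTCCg

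Of the 86 members, 68 had a RefSeq entry in the sequence table. A run of at least 7 pyrimidines touched the start in 54 of them (79.4%), against 6480 of 35116 promoters in the whole table (18.5%), both read on the gene's own strand. A C followed by 4 or more pyrimidines stood exactly at the annotated start in 43 members (63.2%) and in 4.07% of all promoters. Among the core subunits 52 of 62 held such a run of 7, and among paralogues and second copies 2 of 6. RPS27L and RPL26L1 had runs of 3 and 2 bases where RPS27 and RPL26 had 9 and 14, whereas RPL22L1 and RPL36AL carried runs of 10 and 15. Annotated starts can be a few bases off the start used in these cells, and a run in this window is a description of letters, not of a working site.

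ALKBH3 itself, at chr11:43902361-43941816 (hg19), had 23.0, 22.9 and 22.6 CPM in control replicates 1, 2 and 3, against 5.28, 5.98 and 4.52 CPM in the knockdown replicates, where CPM is the count scaled to library size with TMM factors. The groups did not overlap, and the log2 fold change was -2.11 ± 0.137 (SE), adjusted p = 1.01e-10 by edgeR's quasi-likelihood test. Library totals ran from 14244932 to 17880183 counts. Of the epithelial markers, CDH1 had 0 counts in all 6 libraries and EPCAM 4 to 16, while KRT18 had 2094 to 3603 counts and, with KRT8 and KRT7, was called higher in the knockdown (log2 fold changes 0.38, 0.41 and 0.95). KRT19 had 11 to 24 counts and overlapping groups, and was not called (log2 fold change 0.16, edgeR adjusted p = 0.841). The mesenchymal genes VIM and FN1 were above 3000 CPM in every library. Markers of leukocytes (PTPRC, CD68, CD3E) reached at most 65 counts, the endothelial marker CDH5 at most 3, and the fibroblast markers COL3A1 and DCN at most 8, while COL1A1 had 1011 to 1824. In bulk RNA, fewer cells of a type and less RNA per cell cannot be told apart.

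No ribosomal protein gene passed the test between knockdown and control. Of the 86 members, 82 had enough counts to be tested, and 0 were called higher and 0 lower at an adjusted p under 0.05 by edgeR, where 8.08% of all 12305 tested genes were called, 3.96% higher and 4.12% lower. At an unadjusted p under 0.05 edgeR gave 3 of 82 members (3.66%), RPL36AL, RPS24 and RPL10A, all with higher values in the knockdown, against 22.2% of all tested genes. DESeq2 and limma-voom also called 0 members, with 2 and 4 at an unadjusted p under 0.05. Leaving out 1 control library changed these counts. Without control replicate 1, RPL27, RPL38, RPS27 and RPS28 were called lower, and without control replicate 3, RPL22L1 was called higher. Over all genes, 411 were called lower without control replicate 1 and 385 higher without control replicate 3. RPS24, RPL10A, RPL38 and RPS28 are named for these values, after they were seen.

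The median log2 fold change of the 82 members was 0.01, as over all tested genes, with a range from -0.43 to 0.33. The median was -0.07 without control replicate 1 and 0.12 without control replicate 3, so its direction rested on which control libraries were kept. Values were positive for 48 members and negative for 34, and the medians of the small subunit (31 tested), the large subunit (48 tested) and the P stalk (3 tested) were each 0.01. Fitted knockdown levels lay within 10% of control for 71 of 82 members (86.6%), against 54.5% of all tested genes. A p that misses the threshold does not show equal levels, so the intervals matter. The 95% interval of the log2 fold change reached a median of 0.199 to either side of the estimate and lay inside a 1.5-fold change in either direction for 79 of 82 members. The exceptions were RPS10 (-0.94 to 0.08), RPS27 (-0.77 to 0.58) and RPS28 (-0.64 to 0.39). edgeR draws each gene's variance towards that of other genes. The median SE was 0.0967 for members and 0.106 for all tested genes, although the median within-group SD of log2 CPM was 0.168 and 0.129. The intervals may thus be narrow for this family. Members also shifted together by library, so the 79 intervals are not separate bounds. The log2 fold change was also close to 0 for the 54 tested members with a pyrimidine run of at least 7 (median 0.01) and the 13 with a shorter run (median 0.03).

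**Figure D1:**
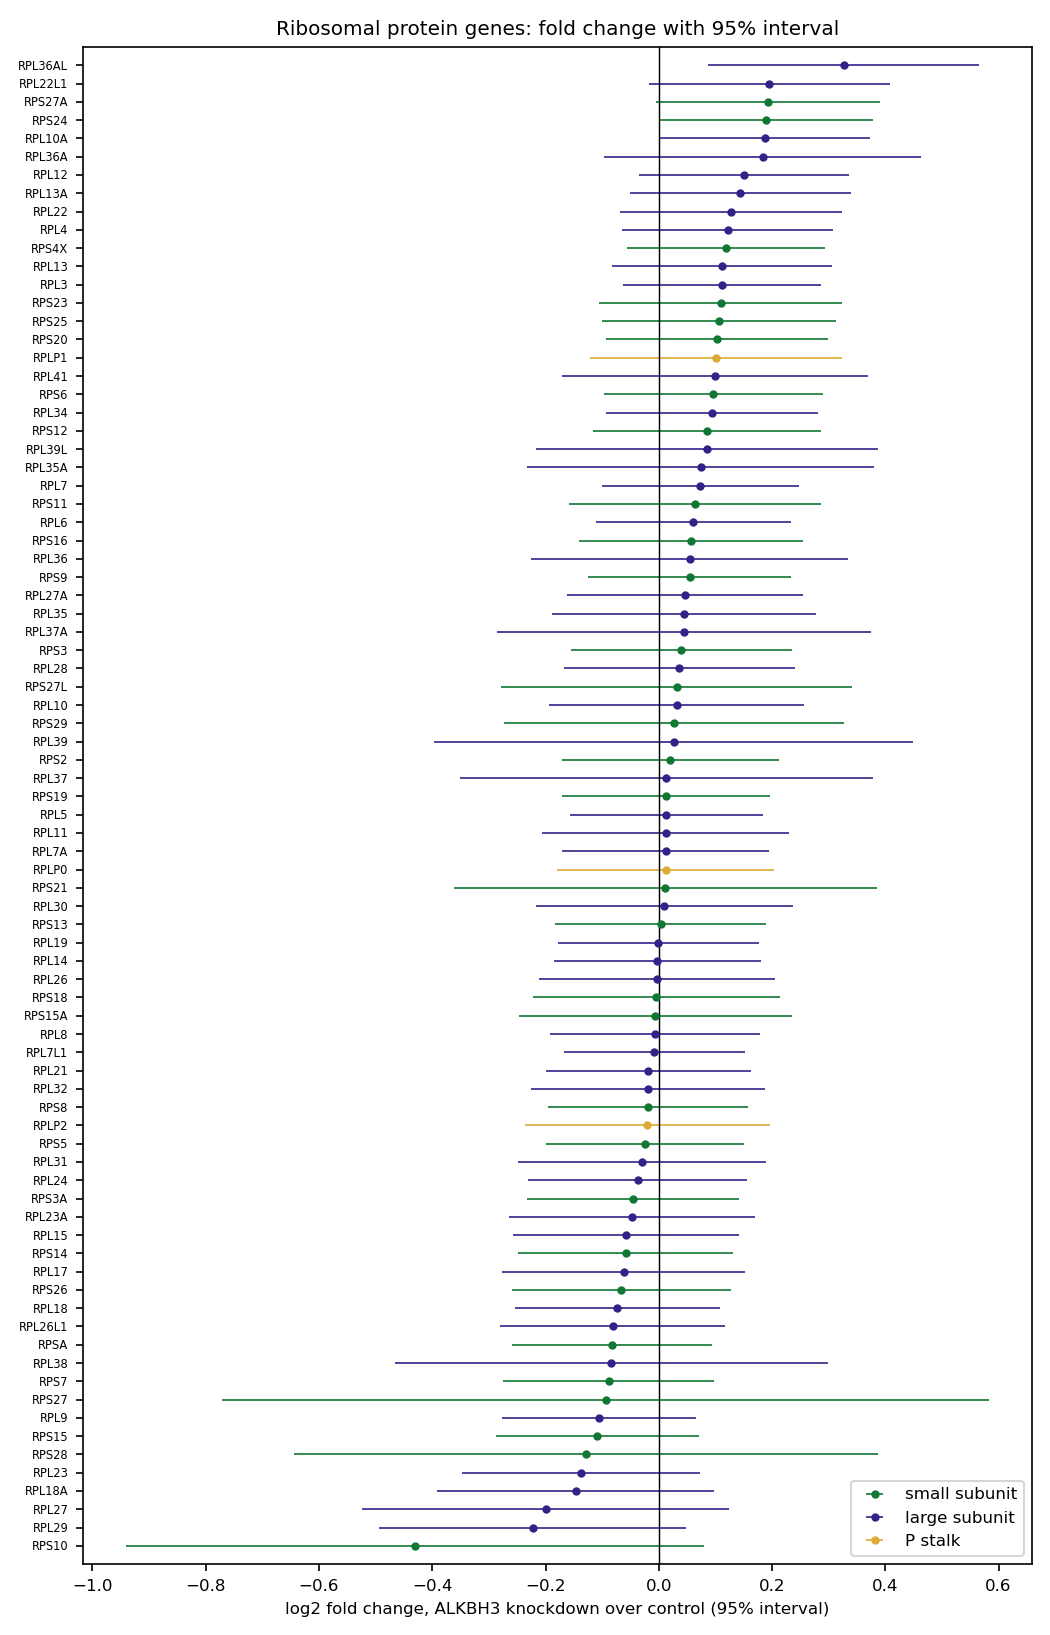
Log2 fold change (x axis, knockdown over control) of each of the 82 tested ribosomal protein genes (y axis, ordered by value), with points for the edgeR estimate and bars for its 95% interval, coloured by subunit. Estimates run from -0.43 (RPS10) to 0.33 (RPL36AL), and the intervals of RPS10, RPS27 and RPS28 are the ones that pass a 1.5-fold change.

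In the small subunit, RPS6, the substrate of the S6 kinases downstream of mTORC1, had 1195, 1379 and 1521 CPM in control replicates 1, 2 and 3, against 1569, 1398 and 1410.3 CPM in the knockdown replicates. Control replicate 1 was the lowest library and knockdown replicate 1 the highest, the groups overlapped, and the log2 fold change was 0.10 ± 0.0938 (SE) (edgeR adjusted p = 0.599). RPS3, which lines the mRNA entry channel, had 1190.1, 1257 and 1527 CPM in control replicates 1, 2 and 3, against 1446, 1321 and 1319 CPM in the knockdown replicates, and its log2 fold change was 0.04. RPSA, also known as the laminin receptor precursor, had 1175, 1134 and 1299.8 CPM in control replicates 1, 2 and 3, against 1179, 1089 and 1141 CPM in the knockdown replicates. Knockdown replicates 2 and 3 and control replicate 2 were its lower libraries, and its log2 fold change was -0.08 (edgeR adjusted p = 0.628).

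RPS27A, made as a fusion with ubiquitin, had 1118, 1129 and 1257 CPM in control replicates 1, 2 and 3, against 1544, 1175 and 1286 CPM in the knockdown replicates. Knockdown replicate 1 stood above the other libraries and the groups overlapped, with a log2 fold change of 0.19 ± 0.0964 (SE) (edgeR adjusted p = 0.241). RPS24, a subunit mutated in Diamond-Blackfan anaemia, had 731, 893 and 913 CPM in control replicates 1, 2 and 3, against 1010.4, 919.7 and 965 CPM in the knockdown replicates. All 3 knockdown values lay above all 3 control values, control replicate 1 was far below the rest, and the log2 fold change of 0.19 ± 0.0910 (SE) gave an edgeR adjusted p of 0.218.

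RPS10 had the lowest log2 fold change of the tested members, -0.43 ± 0.248 (SE), on 30 to 50 counts per library. Its levels were 3.31, 2.81 and 3.18 CPM in control replicates 1, 2 and 3, against 2.78, 2.09 and 1.99 CPM in the knockdown replicates, with the knockdown libraries below the control libraries, and the edgeR adjusted p was 0.319. Its 254 counts in all stand out in a family in which 73 tested members had at least 1000 counts in every library. The row shares its strand and position with the readthrough gene RPS10-NUDT3 (2 counts in all), and how reads in such overlaps were assigned is not stated in the labels or headers. RPL36A (1022 counts), RPL17 (3898) and RPS29 (4563) also overlap rows on the same strand, among 9 members that do, and 26 overlap a row on the opposite strand. RPS13 (53162 counts), RPL36 (45463) and RPS15A (44044) are also among the 9. RPL39L (1048 counts) and RPL26L1 (3632) have few counts and no such overlap on the same strand. The part of these overlaps in the counts was not tested. RPL17 and RPS29 were picked here for their low counts, and RPS13, RPL36 and RPS15A for their higher ones.

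In the large subunit, RPL5 and RPL11, which reach MDM2 as a complex with a small ribosomal RNA, were not called. RPL5 had 1023, 974 and 1073 CPM in control replicates 1, 2 and 3, against 1060.5, 1005 and 1032 CPM in the knockdown replicates. RPL11 had 937, 1270.2 and 1344 CPM in control replicates 1, 2 and 3, against 1162, 1202 and 1219 CPM in the knockdown replicates. The log2 fold change was 0.01 for RPL5 and 0.01 for RPL11, and in RPL11 control replicate 1 stood well below the other 5 libraries. RPL13A, also part of a complex that silences translation of inflammatory mRNAs, had 1288, 1164 and 1405 CPM in control replicates 1, 2 and 3, against 1601, 1332 and 1328 CPM in the knockdown replicates, with knockdown replicate 1 highest and a log2 fold change of 0.14 ± 0.0947 (SE) (edgeR adjusted p = 0.398).

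RPL29 and RPL27 followed RPS10 at the lower end. RPL29, a small basic subunit, had 457, 475 and 555 CPM in control replicates 1, 2 and 3, against 327, 472 and 476 CPM in the knockdown replicates. Its log2 fold change of -0.22 ± 0.126 (SE) came with knockdown replicate 1 alone below every control library (edgeR adjusted p = 0.328). RPL27 had 408, 579.8 and 655 CPM in control replicates 1, 2 and 3, against 429, 519 and 482 CPM in the knockdown replicates. Control replicate 1 and knockdown replicate 1 were its lowest libraries, and its log2 fold change was -0.20 ± 0.147 (SE) (edgeR adjusted p = 0.481), or -0.37 with an edgeR adjusted p of 0.0138 without control replicate 1.

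The P stalk proteins recruit elongation factors to the ribosome. RPLP0, the base of the stalk, had 1737, 1688 and 2001 CPM in control replicates 1, 2 and 3, against 1663, 1846 and 1962 CPM in the knockdown replicates. RPLP1 had 489.8, 554 and 661 CPM in control replicates 1, 2 and 3, against 705, 568 and 555 CPM in the knockdown replicates. RPLP2 had 380.3, 467 and 561 CPM in control replicates 1, 2 and 3, against 473, 462 and 455 CPM in the knockdown replicates. In each of the 3 the groups overlapped and control replicate 3 exceeded the other control libraries, and the log2 fold changes were 0.01, 0.10 and -0.02.

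Across the family, knockdown and control values separated without overlap in 4 of 82 members, against 26.6% of all tested genes. The knockdown libraries were above in RPL36AL, RPS24 and RPL36A (3 of 82, against 13.3%) and below in RPS10 (1 of 82, against 13.3%).

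Paralogue pairs kept their proportions within the spread between libraries. These shares are of the pair's counts, not corrected for length, and are set against each other only across libraries. RPS27L, which p53 induces, took 16.0%, 12.7% and 11.0% of the counts of the RPS27 pair in control, against 12.7%, 14.2% and 14.3% in the knockdown, means of 13.3% ± 2.55 and 13.7% ± 0.913 (SD, n = 3 each). RPS27 had 492, 856 and 935 CPM in control replicates 1, 2 and 3, against 612, 751 and 776 CPM in the knockdown replicates. RPS27L had 94.0, 125 and 116 CPM in control replicates 1, 2 and 3, against 88.8, 124 and 129 CPM in the knockdown replicates. Control replicate 1 was the lowest control library for both, and RPS27L was lowest in knockdown replicate 1.

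RPL22L1, which can replace RPL22 in the ribosome, took 9.24% ± 1.12 of its pair in control and 9.62% ± 0.0492 in the knockdown (SD, n = 3 each). RPL22L1 had 46.8, 44.8 and 62.1 CPM in control replicates 1, 2 and 3, against 61.1, 56.6 and 58.1 CPM in the knockdown replicates, and the log2 fold change was 0.20 ± 0.103 (SE) (edgeR adjusted p = 0.273). Control replicates 1 and 2 were its low libraries, control replicate 3 was the highest of all 6, and without control replicate 3 the log2 fold change was 0.36 with an edgeR adjusted p of 0.0178. RPL22 had 420.3, 518 and 574 CPM in control replicates 1, 2 and 3, against 574, 529 and 549 CPM in the knockdown replicates, with a log2 fold change of 0.13.

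RPL36AL, a copy whose protein is nearly identical to that of RPL36A, had the highest log2 fold change of the tested members. At chr14:50085237-50087403 (hg19), it had 53.2, 70.9 and 73.8 CPM in control replicates 1, 2 and 3, against 95.2, 76.3 and 76.8 CPM in the knockdown replicates. All knockdown values were above all control values, control replicate 1 was the lowest library and knockdown replicate 1 the highest, and the log2 fold change of 0.33 ± 0.114 (SE) gave an edgeR adjusted p of 0.0895. With no filter on low counts the adjusted p was 0.00538 on a log2 fold change of 0.32. RPL36A had 10.3, 9.74 and 10.1 CPM in control replicates 1, 2 and 3, against 11.9, 10.5 and 11.8 CPM in the knockdown replicates, the third member above control in every knockdown library, with a log2 fold change of 0.18 ± 0.136 (SE) (edgeR adjusted p = 0.465). RPL36AL took 86.6% ± 2.40 of the pair's counts in control and 87.8% ± 1.08 in the knockdown (SD, n = 3 each).

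RPL39L, described in germ cells and some tumours, took 2.88% ± 0.591 of the RPL39 pair in control and 2.91% ± 0.382 in the knockdown, and its log2 fold change was 0.08. RPL26L1 took 33.4% ± 3.99 and 31.9% ± 1.80 of the RPL26 pair, and RPL7L1 17.6% ± 0.990 and 16.9% ± 0.982 of the RPL7 pair (SD, n = 3 each). Log2 fold changes were 0.03 for RPL39, -0.00 for RPL26, -0.08 for RPL26L1, 0.07 for RPL7, -0.01 for RPL7L1, 0.11 for RPL3 and 0.03 for RPL10. The paralogues RPL10L (0 counts) and RPL3L, a form of heart and skeletal muscle (2 counts, both in control replicate 3), were among the 4 members left out of the test for low counts. Members of this family have many processed pseudogenes and near-identical copies, and their reads can be divided in an unknown way.

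**Figure D2:**
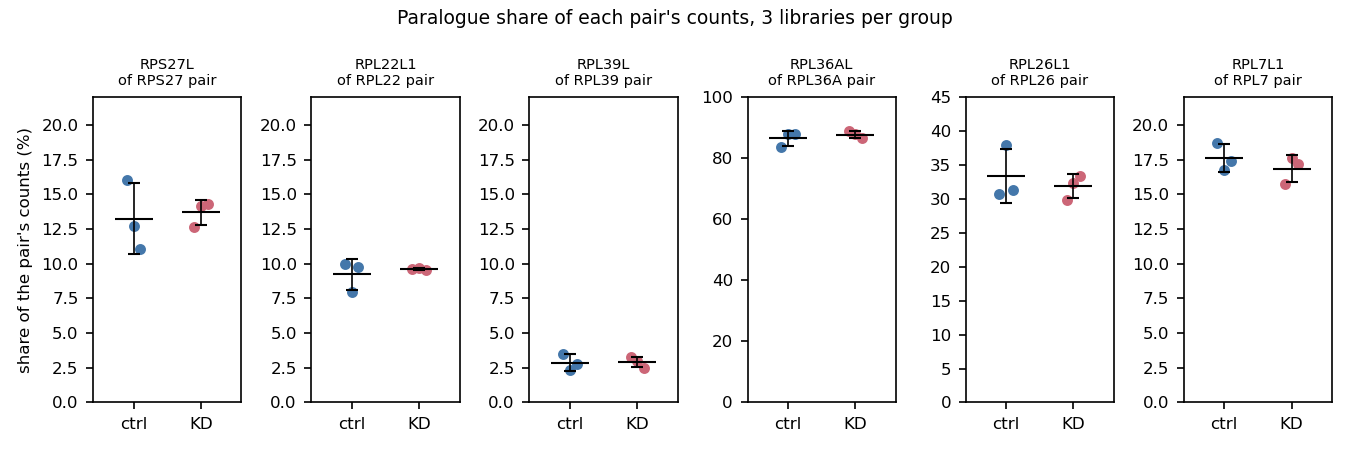
Share of each pair's counts (y axis, %) taken by the paralogue in 6 pairs, with 1 point per library, horizontal lines for the mean and bars for SD (n = 3 per group, ctrl for control and KD for knockdown). RPS27L moves from 13.3% to 13.7% and RPL36AL from 86.6% to 87.8%, and the points of the groups overlap in the pairs drawn.

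Summed over the family, ribosomal protein genes took 5.36%, 5.80% and 6.65% of all counts in control replicates 1, 2 and 3, against 6.22%, 6.09% and 6.16% in the knockdown replicates. The exact Clopper-Pearson 95% interval of the lowest share was 5.35% to 5.37% and of the highest 6.64% to 6.66%, which cover counting error only. The means were 5.94% ± 0.655 and 6.16% ± 0.0685 (SD, n = 3 each), a difference of 0.220 percentage points that is smaller than the control SD. The difference was -0.0686 percentage points without control replicate 1 and 0.576 without control replicate 3, so its sign rested on which control libraries were kept. The knockdown shares all lay between control replicates 2 and 3. The ratio of small to large subunit counts was 0.715, 0.693 and 0.700 in control and 0.722, 0.693 and 0.695 in the knockdown.

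**Figure D3:**
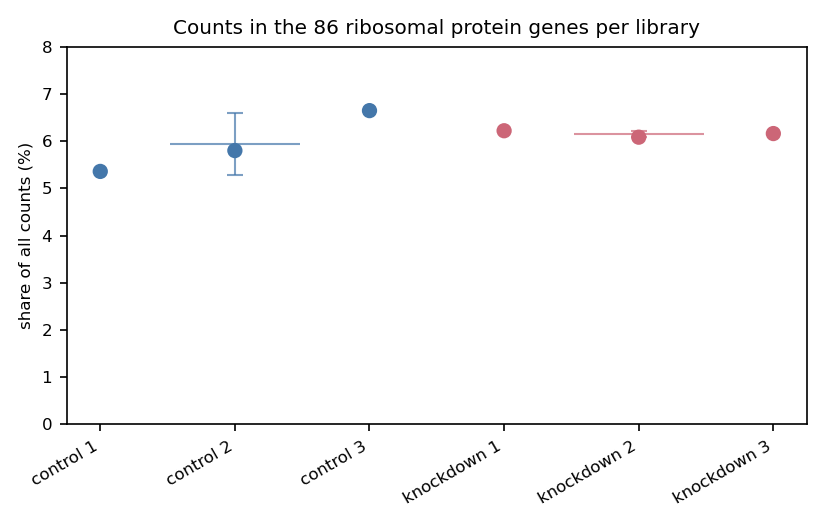
Share of all counts (y axis, %) in the 86 ribosomal protein genes, with 1 point per library and the mean and SD of each group (n = 3). Control libraries spread from 5.36% to 6.65%, and knockdown libraries lie between 6.09% and 6.22%.

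The variation within the control group exceeded the difference between groups, and it ran through most of the family. Control replicate 1 was the lowest control library in 59 of 82 members (72.0%, against 31.0% of all tested genes), and control replicate 3 the highest in 77 (93.9%, against 33.3%). The median member stood at -0.18, -0.02 and 0.20 on the log2 scale from the control mean in control replicates 1, 2 and 3, and at 0.05, 0.02 and 0.02 in the knockdown replicates. In 48 members (58.5%) all 3 knockdown values lay inside the control range, against 18.4% of all tested genes. The median SD of log2 CPM in the control group was 0.191 for the members and 0.130 for all tested genes, and in the knockdown group 0.0778 and 0.107. Labels name no batch, day or RNA quality value that could be set beside this spread.

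The spread between control libraries was graded by coding length, taken from the principal transcripts of GENCODE 29. Members under 300 nt (n = 11) had a median of -0.44, 0.11 and 0.32 on the log2 scale from the control mean in control replicates 1, 2 and 3, and members of 600 nt or more (n = 23) had -0.05, -0.07 and 0.13. Other tested genes under 300 nt (n = 219) had -0.12, 0.01 and 0.13, in the same direction and smaller, and those of 600 nt or more (n = 10575) had 0.02, 0.00 and -0.02. Across the 82 members, Spearman's rho between coding length and this difference was 0.71, -0.63 and -0.68 in the control replicates and -0.06, -0.30 and -0.01 in the knockdown replicates. Across the 11977 other genes with a length it was 0.21, 0.14 and -0.35 in the control replicates. Genes of a library share its preparation and depth, the 3 control differences sum to 0 for each gene, and these correlations are descriptions across genes. The part of fragment size, RNA quality or any other cause was not tested.

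The 8 members with the widest control range, picked by that range, were all under 300 nt. RPS27 (252 nt) had a control maximum 1.90 times its minimum, and RPS28 (207 nt), RPL39 (153 nt), RPS21 (249 nt), RPL38 (210 nt), RPL37 (291 nt), RPL37A (276 nt) and RPS29 (168 nt) had 1.80, 1.74, 1.73, 1.72, 1.70, 1.69 and 1.67. The ratio over the 82 members had a median of 1.29 in control and 1.10 in the knockdown. RPL38, RPS27 and RPS28 are also 3 of the 4 members called lower once control replicate 1 was left out. Control replicate 1 was the lowest control library in each of them, so this overlap follows in part from how they were picked. RPL41, chosen as the shortest member at 75 nt, had 276, 389 and 436 CPM in control replicates 1, 2 and 3, against 403, 384 and 393 CPM in the knockdown replicates, with control replicate 1 below the other 5 libraries.

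**Figure D4:**
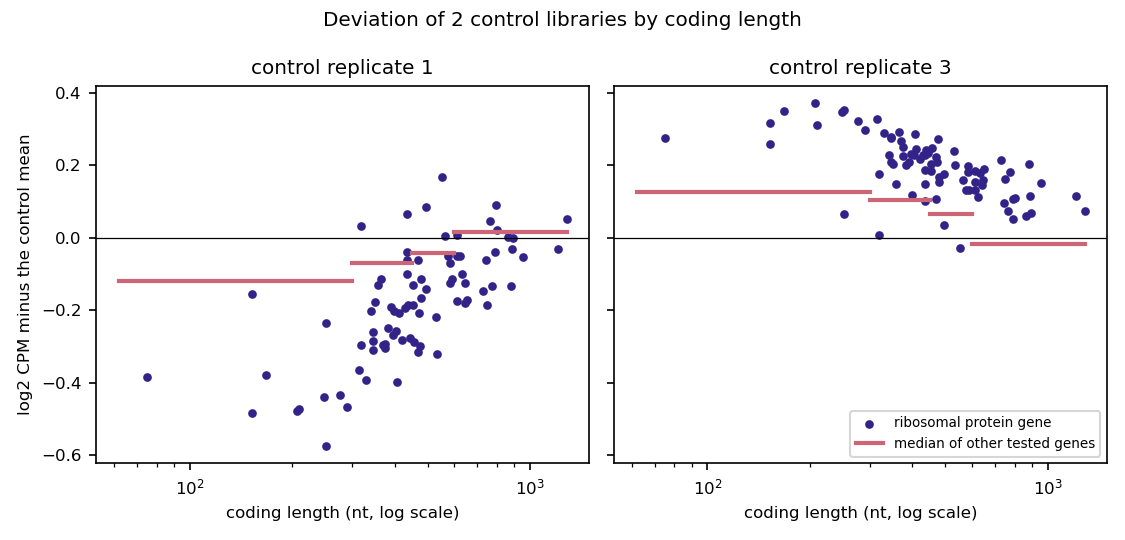
Difference of log2 CPM from the control mean (y axis) against coding length (x axis, nt, log scale) for control replicates 1 and 3, with 1 point per ribosomal protein gene (n = 82) and lines for the median of other tested genes in 4 length classes. Members under 300 nt sit at a median of -0.44 in control replicate 1 and 0.32 in control replicate 3, and members of 600 nt or more at -0.05 and 0.13.

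**Figure D5:**
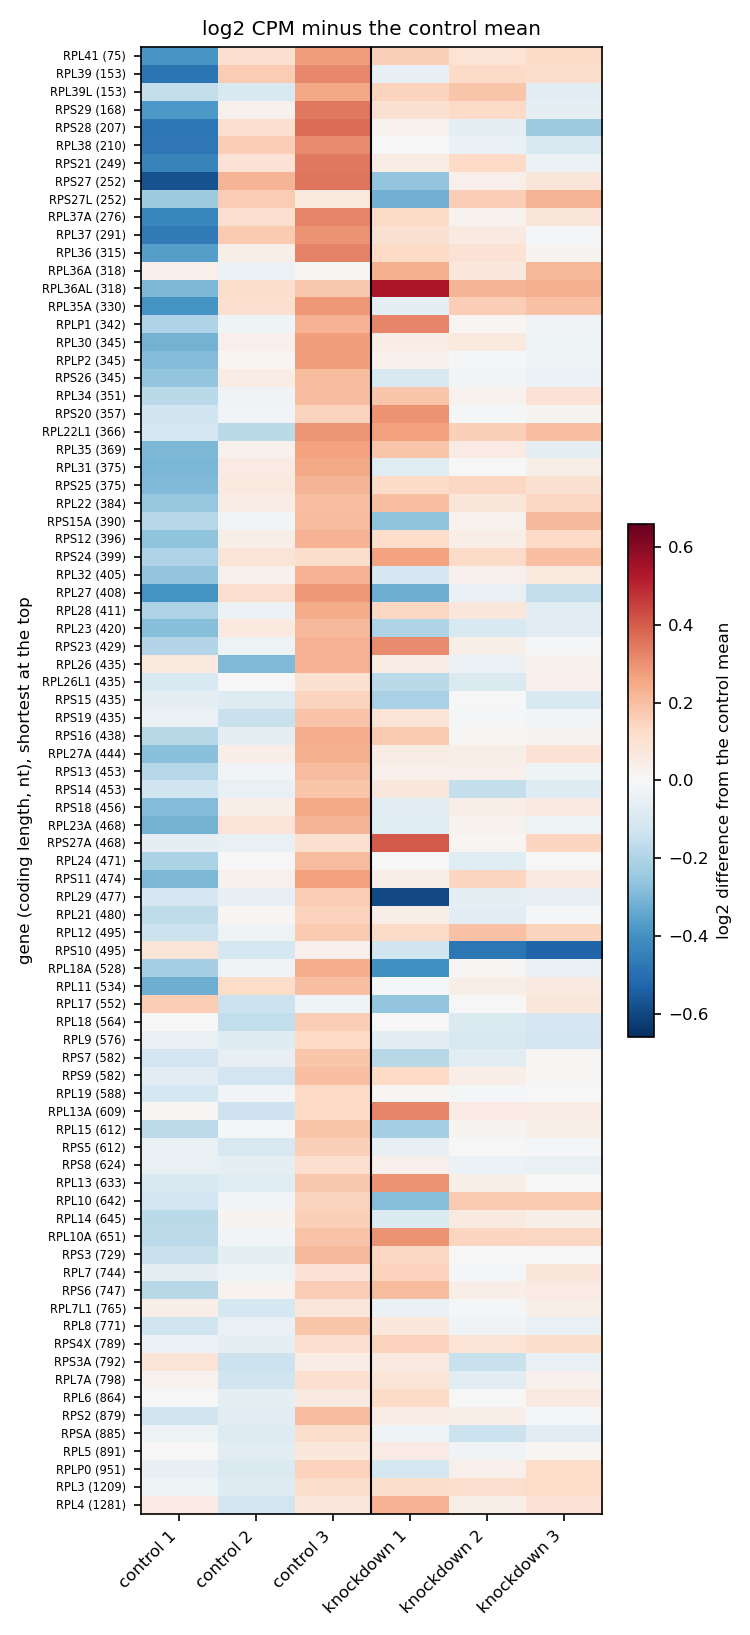
Difference of log2 CPM from the control mean (colour) for each of the 82 tested members (rows, shortest coding length at the top) in the 6 libraries (columns, separated by a line between the groups). Control replicate 1 is lower and control replicate 3 higher through most rows, most of all in the short genes, while RPL29 is low and RPL36AL high in knockdown replicate 1.

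Knockdown replicate 1 was the highest knockdown library in 45 of 82 members (54.9%, against 37.9% of all tested genes). It departed from the mean of knockdown replicates 2 and 3 in both directions, and the members furthest off were picked here for that ratio. The CPM of knockdown replicate 1 was 0.689 times this mean in RPL29, 0.700 in RPS27L and 0.730 in RPL10. It was 1.36 times in RPS10 and 1.25 times in RPS27A and RPLP1. The RPS10 ratio rested on 50, 37 and 30 counts in knockdown replicates 1, 2 and 3, so counting error weighs on it.

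Genes that act with the ribosomal proteins were counted from named lists. FAU, which encodes a small subunit protein fused to a ubiquitin-like one, and GNB2L1 (RACK1), a scaffold on the small subunit, were not called by edgeR, with log2 fold changes of 0.08 and 0.01. Of 15 tested translation factors and other TOP mRNAs, 0 were called by edgeR, where 8.08% of all tested genes were called. At an unadjusted p under 0.05 there were 2 (13.3%, against 22.2% of all tested genes), and the median log2 fold change was 0.05. Of 14 tested RNA polymerase I genes, which serve ribosomal RNA synthesis, 0 were called, against the same 8.08%. An unadjusted p under 0.05 was found for 2 of them (14.3%, against 22.2%). With lists this short, 0 calls do not set them apart from all tested genes.

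Of 38 tested ribosome biogenesis genes, 2 were called higher (5.26%, near the 3.96% of all tested genes) and 0 lower (against 4.12%), with a median log2 fold change of 0.04. At an unadjusted p under 0.05 by edgeR there were 12 of 38 (31.6%, against 22.2% of all tested genes), 10 with higher and 2 with lower values in the knockdown. This list was also chosen with earlier results of these data known, so the share is a description only. NOB1, the endonuclease that finishes the small subunit's RNA, had 45.5, 42.1 and 50.7 CPM in control replicates 1, 2 and 3, against 58.6, 58.8 and 55.8 CPM in the knockdown replicates, a log2 fold change of 0.32 ± 0.0898 (SE) (edgeR adjusted p = 0.0244). SBDS, which helps free EIF6 from the large subunit, had 81.8, 80.0 and 82.6 CPM in control replicates 1, 2 and 3, against 97.7, 93.0 and 103 CPM in the knockdown replicates, a log2 fold change of 0.26 ± 0.0779 (SE) (edgeR adjusted p = 0.0366). In both genes all knockdown values lay above all control values. The call of NOB1 was lost without control replicate 1 or 2 or any 1 knockdown library, and that of SBDS without any 1 of the 6 libraries. Over the settings tried the edgeR, DESeq2 or limma-voom adjusted p of NOB1 ran from 0.00910 to 0.327 and that of SBDS from 0.0223 to 0.525.

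Of 9 tested genes of mTORC1, LARP1 and the RPS6 kinases, 2 were called higher and 0 lower, where 3.96% and 4.12% of all tested genes were called. At an unadjusted p under 0.05 by edgeR there were 5 of 9 (55.6%, against 22.2% of all tested genes), 2 with higher and 3 with lower values in the knockdown. The list is short and was chosen with earlier results of these data known, so this share is a description only. EIF4EBP1, which mTORC1 phosphorylates and which restrains the cap-binding factor EIF4E, had 75.6, 78.1 and 103 CPM in control replicates 1, 2 and 3, against 124, 129 and 128 CPM in the knockdown replicates. The groups did not overlap, and the log2 fold change was 0.57 ± 0.0955 (SE) (edgeR adjusted p = 3.92e-04), with the adjusted p at or below 0.00422 under every setting tried. RPS6KA2, a kinase of the RSK family, had 47.4, 38.0 and 40.8 CPM in control replicates 1, 2 and 3, against 55.8, 55.4 and 52.6 CPM in the knockdown replicates, a log2 fold change of 0.38 ± 0.0936 (SE) (edgeR adjusted p = 0.0117), which ran up to 0.224 over the settings and was lost without control replicate 2 or knockdown replicate 2. The 3 with lower values, named after they were seen, were RPS6KA1, another RSK kinase, EIF4EBP2, a relative of EIF4EBP1, and MTOR, the kinase of mTORC1. In each all knockdown values lay below all control values, as in 13.3% of all tested genes. RPS6KA1 had a log2 fold change of -0.26 ± 0.0848 (SE) (edgeR adjusted p = 0.0572), EIF4EBP2 of -0.19 ± 0.0778 (SE) (adjusted p = 0.150) and MTOR of -0.21 ± 0.0828 (SE) (adjusted p = 0.128), and none of them was called. LARP1 had a log2 fold change of 0.09 with overlapping groups and was not called.

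The mitochondrial ribosome, built from a separate set of nuclear genes, had 0 of 75 tested members called higher (against 3.96% of all tested genes). Its median log2 fold change was -0.01, and 4 members (5.33%) had an unadjusted p under 0.05, against 22.2% of all tested genes. Called lower was 1 member (1.33%, against 4.12% of all tested genes). The 1 was MRPL17, with 74.3, 88.7 and 102 CPM in control replicates 1, 2 and 3, against 66.7, 60.0 and 65.0 CPM in the knockdown replicates. All knockdown values lay below all control values, and the log2 fold change was -0.47 ± 0.0962 (SE) (edgeR adjusted p = 0.00263).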

How the data were processed

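Raw read counts per gene were deposited by the authors for 6 libraries, per the file headers. Per the submitters' processing notes, the build was hg19 and the tools included featureCounts 2.0, STAR 2.7.9a and fastp 0.20.0, besides DESeq2. Settings, annotation and counting strand were not given in the sources used here. Each library began from 1 ug of total RNA, enriched with oligo dT, and used a stranded kit, per the labels' protocols.

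Genes were filtered with filterByExpr (0.056% of counts removed, 12305 genes left), scaled by TMM and tested with edgeR 4.0.16's robust quasi-likelihood test in R 4.3.3, adjusted over all genes by Benjamini-Hochberg and called at 0.05. CPM values, SDs and 95% intervals come from the same data and fit. DESeq2 1.42.0, limma-voom 3.58.1, other filters and scalings, a replicate block and leaving out each library were alternatives. The fit was tested on simulated data. Coding lengths come from GENCODE 29, matched by Ensembl identifier.

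The members and lists were chosen with earlier results of these data known. Named are ALKBH3, called members, the 3 highest and 3 lowest log2 fold changes, paralogue pairs, a fixed set of well-known subunits, members removed by the filter and up to 3 called genes per list and direction. Others are said to be chosen after their values were seen. A few genes that this rule names are not reported here.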

Additional observations from a re-analysis of the deposited data

How the results depend on the processing

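No called gene among those named changed direction under the alternatives run. With no filter on low counts, the number of ribosomal protein genes higher in the knockdown was 1 (RPL36AL). In the main fit it was 0, where 3.96% of all tested genes were called higher. Leaving out 1 library at a time gave 0 to 1 of the ribosomal protein genes higher in the knockdown (RPL22L1, without control replicate 3) and 0 to 4 of the ribosomal protein genes lower in the knockdown (RPL27, RPL38, RPS27 and RPS28, without control replicate 1). The median log2 fold change of the ribosomal protein genes then ran from -0.07 (without control replicate 1) to 0.12 (without control replicate 3). The share of assigned counts in ribosomal protein genes, percent, knockdown minus control, ran from -0.0686 to 0.576 without the same libraries. For all genes higher in the knockdown (487) and all genes lower in the knockdown (507), leaving out 1 library gave 312 to 433 and 285 to 423, with fewer samples in each fit. Scaling to the summed ribosomal protein counts, chosen after seeing the data, gave 184 and 229, and an adjusted p under 0.01 gave 251 and 207. In the companion lists, members higher numbered 4, then 1 to 4 without 1 library, 1 with that scaling and 1 at an adjusted p under 0.01. In the companion lists, members lower numbered 1, then 1 to 2 without 1 library and 2 with DESeq2. The cause of these differences was not tested.

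The replicate numbers were not found to pair libraries: deviations of same-numbered libraries correlated at 0.06, 0.09 and -0.04 across genes. Knockdown replicate 1 correlated best with control replicate 3 (0.07) and knockdown replicate 3 with control replicate 2 (0.05). Knockdown replicate 2 correlated best with its own number, control replicate 2 (0.09). With the replicate block, 0 ribosomal protein genes were called and, in the companion lists, members lower numbered 2. Depth limits RPS10 and the 4 members left out of the test, and the intervals of RPS10, RPS27 and RPS28 were the widest.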
